A study of Mus musculus with 9 samples.

Results

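The genes described are 30 mouse genes of rod phototransduction, the rod outer segment and the matrix around it. The choice was by symbol from a list of functions, with earlier results of these data known. All 30 were found among the 47729 gene identifiers of the count table, and all 30 passed the filter on low counts in each comparison. They were measured by bulk RNA sequencing of whole retinas in 9 libraries, 3 for each of 3 groups of mice on the C57Bl6/J strain background. The C57 group was wild type, was taken at postnatal day 30 (P30), has labels that mention no 4-hydroxytamoxifen, and was carried over from an older series for re-analysis. The control group carried floxed Yap (Yap flox/flox) without a Cre and was taken at P60. The Yap CKO group had the same floxed Yap together with Rax-CreERT2, a Cre that tamoxifen switches on in Müller cells, the main glia of the retina, and was also taken at P60. Both P60 groups received 4-hydroxytamoxifen (4-OHT) by intraperitoneal injection at P10, and each of their libraries came from 1 frozen retina. In the Yap CKO mice the deletion was therefore aimed at glia, while the genes described here are genes of photoreceptors. For the controls the genotype label itself says Yap CKO with no Cre, and their group was taken from the study's design. The names of the 6 P60 libraries carry the letters MNU, which in retina work usually stand for N-methyl-N-nitrosourea, an agent that kills photoreceptors, but the labels used here describe no such treatment, dose or time. Age, 4-OHT, the floxed allele, the series of origin and anything that the letters stand for all separate the P60 groups from C57 and cannot be told apart.

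Rods turn light into a nerve signal in the outer segment, a stack of membrane discs. Light-activated visual pigment switches on the G protein transducin, transducin releases the block on a phosphodiesterase, and the fall in cyclic GMP closes cation channels in the plasma membrane. The response ends when the pigment is phosphorylated and capped by arrestin, when transducin hydrolyses its GTP, and when guanylate cyclases restore cyclic GMP. Rods are the most numerous cells of the mouse retina, so these genes give some of its most abundant transcripts, and loss of many of them causes retinal degeneration.

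The promoters of a few of the genes are shown first because rod genes are known to be switched on together by CRX, a homeodomain factor, and NRL, a MAF-family factor. The search used 24 RefSeq promoters (GRCm38.p6) of 21 of the 30 genes, and no promoter of the other genes was searched. The 250 bases before each start were searched on both strands. The letters TAATCC, the core of the sequence that CRX binds, or their complement GGATTA, were found in 9 of the 24 (37.5%), against 6.3% of all 32851 promoters of that length. The letters TGCTGA, or TCAGCA, which form part of the sequence that NRL binds, were found in 5 of the 24 (20.8%), against 16.1% of all promoters. The motifs do not overlap in their letters, and a match is a description of the window, not a bound site. Each line gives the 250 bases before the start, 5′ to 3′ on the gene's strand, with the matches in capitals. The promoter of Sag (chr1:87803430-87803679, plus strand) held 1 match of each motif, 87 and 187 bases before the start. Those of Cngb1 (chr8:95306586-95306835, minus strand) and Gucy2f (chrX:142196937-142197186, minus strand) held 2 CRX-type matches each, and that of Gngt1 (chr6:3993758-3994007, plus strand) held 1.
Sag: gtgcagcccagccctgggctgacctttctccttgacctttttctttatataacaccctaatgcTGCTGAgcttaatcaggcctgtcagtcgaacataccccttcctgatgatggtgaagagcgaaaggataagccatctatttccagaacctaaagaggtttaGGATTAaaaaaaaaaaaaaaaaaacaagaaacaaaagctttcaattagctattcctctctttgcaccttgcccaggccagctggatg
Cngb1: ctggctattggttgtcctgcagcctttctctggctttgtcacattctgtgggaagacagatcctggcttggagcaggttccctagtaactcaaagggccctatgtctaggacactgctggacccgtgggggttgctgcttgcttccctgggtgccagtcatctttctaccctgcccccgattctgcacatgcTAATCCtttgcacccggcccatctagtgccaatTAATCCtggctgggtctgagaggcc
Gucy2f: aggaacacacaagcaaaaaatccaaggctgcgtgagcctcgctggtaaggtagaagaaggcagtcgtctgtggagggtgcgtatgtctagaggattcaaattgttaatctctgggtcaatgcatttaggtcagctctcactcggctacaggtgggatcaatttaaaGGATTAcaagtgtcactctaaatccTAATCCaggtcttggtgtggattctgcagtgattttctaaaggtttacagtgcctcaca
Gngt1: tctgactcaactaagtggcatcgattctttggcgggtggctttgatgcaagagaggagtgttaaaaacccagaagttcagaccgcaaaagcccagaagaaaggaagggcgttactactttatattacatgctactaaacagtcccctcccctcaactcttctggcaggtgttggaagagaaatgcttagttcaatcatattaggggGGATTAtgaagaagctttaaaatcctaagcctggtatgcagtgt

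The C57 libraries held 13760765 to 16808499 counts and the P60 libraries 34739679 to 37629264. One C57 column of the count table carries a number that no sample description shares, so it was kept in its group and is called the unnumbered C57 library. Yap1, the targeted gene, stood at 66.3, 60.4 and 56.9 CPM (counts relative to library size, scaled by TMM over the 9 libraries) in controls 1, 2 and 3 and at 15.2, 21.4 and 24 CPM in Yap CKO 1, 2 and 3. Every Yap CKO library was thus below every control library for Yap1, while the C57 libraries stood at 23.9 to 31.1 CPM. Y-linked transcripts were present in all 3 control libraries, in Yap CKO 3 and in C57 2, and Xist in the other 4, so sex differed between and within groups, and its part in the results was not tested. Yap CKO 3 stood apart by its lens markers, whose summed level over 14 genes was 1330 CPM, against 34.9 CPM or less in each other library. Reactive gliosis markers (12 genes) summed to 302 to 420 CPM in C57, 3380 to 3700 in controls and 3600 to 4160 in Yap CKO, and general Müller glia markers (10 genes) to 8730 to 9530, 4500 to 5410 and 4640 to 5690 CPM. Pigment epithelium markers (12 genes) summed to 426 to 454, 190 to 222 and 104 to 330 CPM in the same groups. The part of these other cell types in the results below was not tested.

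Together the 30 genes took up 100400, 98100 and 90080 CPM in C57 1, C57 2 and the unnumbered C57 library. In controls 1, 2 and 3 they took up 18900, 4376 and 9793 CPM, and in Yap CKO 1, 2 and 3 they took up 20250, 11080 and 1904 CPM. As a share of the deposited counts they made up 7.55% to 8.52% in C57, 0.492% to 1.98% in controls and 0.206% to 2.16% in Yap CKO. All 6 P60 libraries lay below all 3 C57 libraries, and the P60 libraries of both groups were interleaved over a wide range. In bulk tissue, fewer photoreceptors and less RNA per photoreceptor cannot be told apart, and which cells made each transcript was not measured.

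**Figure D1:**
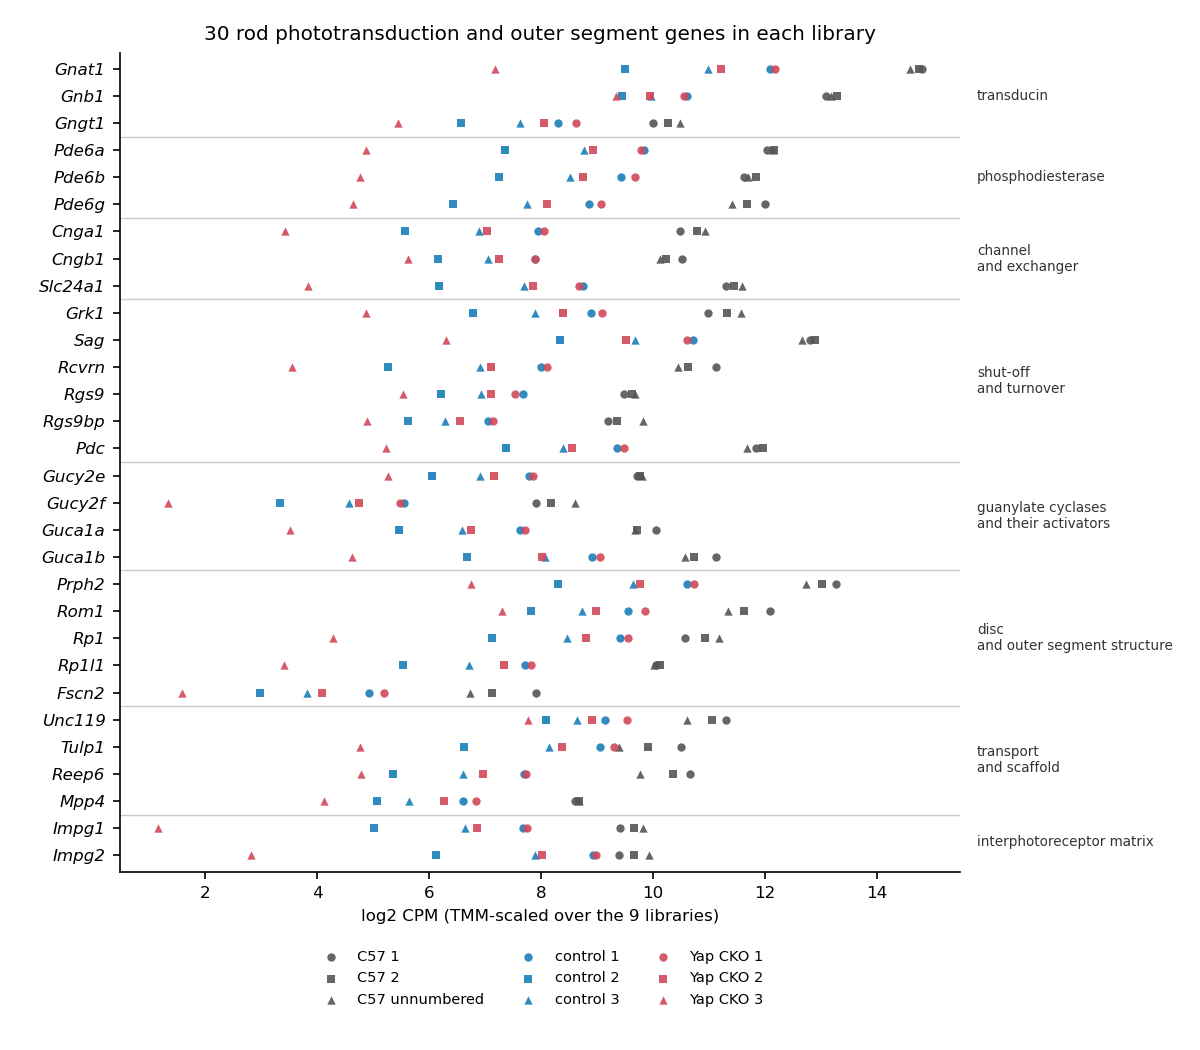
Level of each of the 30 genes (rows, grouped by role) in each library, as log2 CPM on the horizontal axis, with 1 point per library, colour for the group and shape for the library. For every gene the 3 C57 points (grey) lie to the right of all P60 points, and the lowest point of every row is Yap CKO 3 (red triangle).

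Levels of different genes were compared per kilobase of exon (RPKM) in the C57 retina. Gnat1, the alpha subunit of rod transducin, was highest at 8900 ± 634 RPKM (SD, n = 3), and it did not overlap with the next gene, Prph2 (2770 ± 515 RPKM). Rom1 (2230 ± 596 RPKM), Gnb1 (2190 ± 155 RPKM) and Rcvrn (1670 ± 421 RPKM) followed, each overlapping with its neighbour. Gucy2f was lowest at 37.8 ± 9.22 RPKM, 236-fold below Gnat1, and lay below Mpp4 (57.1 ± 1.62 RPKM) without overlap. Of the 29 pairs of neighbours in this order, 26 overlapped between libraries, so most of the ranks in between are not separated by the spread of the C57 group.

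Within the C57 group the highest library exceeded the lowest by 1.05-fold to 2.26-fold for the 30 genes (median 1.38-fold, against 1.43-fold over all 16858 genes tested). The 2 widest were Fscn2 (240, 140 and 106 CPM in C57 1, C57 2 and the unnumbered library) and Tulp1 (1447, 969 and 671 CPM). Gucy2f ran the other way, with 242, 290 and 389 CPM. These differences followed GC content, taken over the exons of each gene's longest transcript. Across the 30 genes the log2 ratio of the unnumbered library to C57 1 had a Pearson correlation of -0.78 and a Spearman correlation of -0.83 with GC content, which ran from 36.7% (Gngt1) to 62.0% (Reep6). Over 16122 tested genes the same correlations were -0.62 and -0.69. All of these points share the same pair of libraries, and genes are not replicates. GC content and the log2 fold change of control against C57 had a Spearman correlation of -0.11 over the 30 genes, against 0.25 over all tested genes and 0.32 over the 24 other photoreceptor genes. For Yap CKO against C57 the values were -0.03, 0.34 and 0.40.

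**Figure D2:**
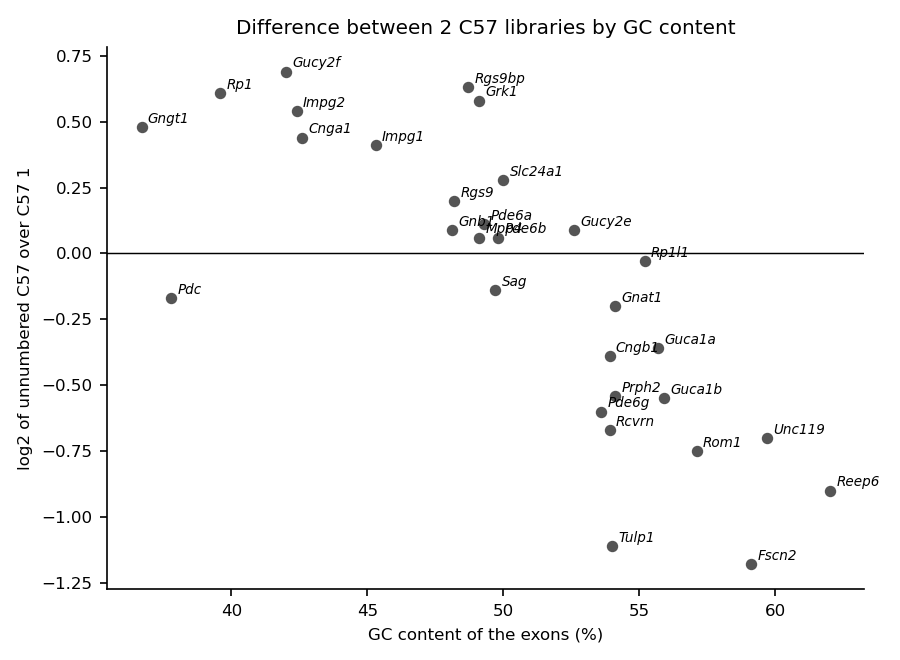
GC content of the exons of each gene's longest transcript (horizontal, percent) against the log2 ratio of the unnumbered C57 library to C57 1 (vertical) for the 30 genes, 1 point per gene. Gucy2f, Rp1 and Gngt1, which have much AT, lie above 0, and Reep6, Fscn2 and Rom1, which have much GC, lie below it. Pdc (37.8% GC) lies below 0 as well, at -0.17.

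The comparison of control with C57 asks how far the transcripts of the 30 genes in the P60 retina with intact Yap stood from those of the younger wild type. All 30 genes were lower in control in every library, and 29 of 30 passed the test (edgeR quasi-likelihood, Benjamini-Hochberg adjusted over 15820 genes, threshold 0.05). The share of all tested genes called lower was 22.4%, and the share whose control libraries all lay below all C57 libraries was 29.4%. Log2 fold changes ran from -3.71 for Pde6g (13.1-fold lower) to -1.61 for Impg2, with a median of -3.07, while the median over all genes was 0.03. The 24 other photoreceptor genes of a separate list all passed as lower, with a median of -2.87. Of 11 cone phototransduction genes, 9 passed as lower with a median of -2.29. Impg2 was the gene of the 30 that missed the threshold (adjusted p = 0.0522), and it passed with DESeq2 (30 of 30 passed), with limma-voom and with upper-quartile scaling. Genes called over the alternatives numbered 22 to 30, apart from the fit with replicate number as a block, on libraries 1 and 2 of each group, where 17 of 30 passed.

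The comparison of Yap CKO with C57 uses the same C57 libraries, so its values are given beside those of the control and are not a separate test of them. All 30 genes were again lower in every Yap CKO library than in every C57 library (27.1% of all tested genes were), and 17 of 30 passed the test, against 20.2% of all 15840 tested genes called lower. Log2 fold changes ran from -3.68 (Slc24a1) to -1.64 (Tulp1), with a median of -3.05. The other 13 genes had log2 fold changes between -3.49 (Gnat1) and -1.64 and standard errors of 0.759 to 1.4, and 9 of them reached an unadjusted p under 0.05. Without Yap CKO 3, 29 of 30 passed. Without C57 1, C57 2, the unnumbered C57 library or Yap CKO 2 the count was 5, 8, 4 and 5, with no filter on low counts it was 4, and with GC-adjusted offsets, chosen after seeing the data, it was 9, so the count depends on single libraries and on the processing although the direction did not. Of the 24 other photoreceptor genes, 19 passed as lower, and of the 11 cone genes, 6.

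**Figure D3:**
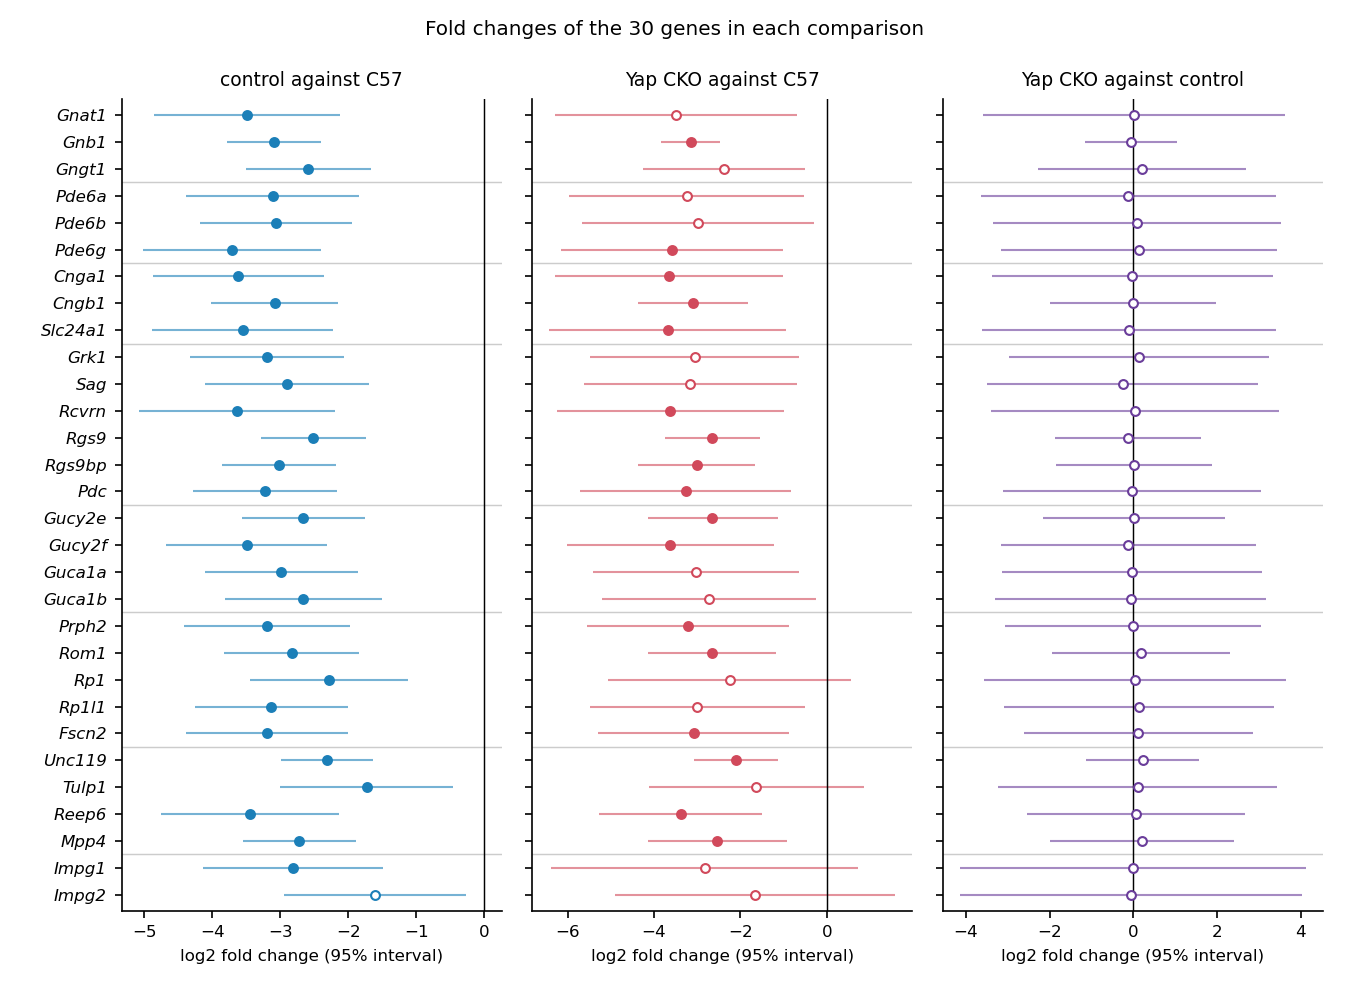
Log2 fold change of each gene (rows) in the 3 comparisons (panels, each with its own horizontal scale), with the 95% interval as a line. Filled points passed an adjusted p of 0.05. In control against C57 29 points are filled and in Yap CKO against C57 17 are, while in Yap CKO against control none is and every interval crosses 0.

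The 3 subunits of transducin all passed as lower in control against C57, and 1 of 3, Gnb1, passed in Yap CKO against C57. Gnat1 (ENSMUSG00000034837, chromosome 9, 107674474 to 107679712 on GRCm38), the alpha subunit that binds GTP, stood at 28570, 27440 and 24820 CPM in the C57 libraries, at 4365, 722 and 2024 CPM in controls 1, 2 and 3, and at 4657, 2375 and 145 CPM in Yap CKO 1, 2 and 3. The highest P60 library lay far below the lowest C57 library. The fold change was -3.49 ± 0.589 (log2, SE) in control against C57 (adjusted p = 0.0023). In Yap CKO against C57 it was also -3.49, but with an SE of 1.13, and it missed the threshold (adjusted p = 0.0543). Gnb1, a beta subunit that many cell types use, stood at 8730, 10050 and 9307 CPM in C57, at 1553, 694 and 998 CPM in controls and at 1513, 987 and 648 CPM in Yap CKO. Its spread within Yap CKO was the smallest of the 30 genes, and it passed in both comparisons, with -3.09 ± 0.298 and -3.15 ± 0.3 (adjusted p = 0.000195 and 0.00017). Gngt1, the gamma subunit of rod transducin, stood at 1026, 1230 and 1434 CPM in C57, 315, 95.2 and 197 CPM in controls and 396, 264 and 43.8 CPM in Yap CKO. Its log2 fold change was -2.59 ± 0.395 in control (adjusted p = 0.00145) and -2.38 ± 0.759 in Yap CKO, where it did not pass (adjusted p = 0.0517).

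The rod phosphodiesterase consists of 2 catalytic subunits, encoded by Pde6a and Pde6b, and an inhibitory gamma subunit encoded by Pde6g. Pde6a stood at 4215, 4560 and 4542 CPM in C57, at 920, 164 and 436 CPM in controls and at 884, 487 and 29.2 CPM in Yap CKO. Pde6b (chromosome 5, 108388391 to 108432397) followed it closely, with 3178, 3683 and 3307 CPM in C57, 688, 152 and 366 CPM in controls and 825, 430 and 27.2 CPM in Yap CKO. The ratio of Pde6a to Pde6b per exon length was 1.33 to 1.47 in C57, 1.15 to 1.43 in controls and 1.15 to 1.22 in Yap CKO, so the ratio of the catalytic pair stayed within a narrow band although Pde6a was 152-fold and Pde6b 125-fold below its C57 mean in Yap CKO 3. Pde6g had the largest fall of the 30 genes in control, from 4105, 3286 and 2713 CPM in C57 to 462, 85.8 and 217 CPM in controls, with 537, 276 and 25 CPM in Yap CKO. It passed in both comparisons (-3.71 ± 0.566, adjusted p = 0.00145, and -3.59 ± 1.04, adjusted p = 0.0391). Pde6a and Pde6b passed in control (-3.11 and -3.06) and missed in Yap CKO against C57 (-3.24 and -2.98, adjusted p = 0.0619 and 0.076).

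The genes of the cation channel and its partner exchanger passed in both comparisons. Cnga1, the alpha subunit of the cyclic GMP gated channel, stood at 1434, 1760 and 1949 CPM in C57, 247, 47.6 and 119 CPM in controls and 265, 131 and 10.7 CPM in Yap CKO. Slc24a1, the exchanger that removes calcium from the rod outer segment, stood at 2545, 2804 and 3097 CPM, at 429, 72.9 and 208 CPM and at 412, 231 and 14.4 CPM in the same order. Both had among the largest falls, of -3.62 and -3.55 in control and -3.66 and -3.68 in Yap CKO. Cngb1, the beta subunit (chromosome 8, 95239045 to 95306585), kept more of its level in the lowest library, with 1464, 1206 and 1116 CPM in C57, 238, 71.1 and 132 CPM in controls and 238, 152 and 49.6 CPM in Yap CKO. Its fold changes were -3.08 ± 0.405 and -3.10 ± 0.539. The ratio of Cnga1 to Cngb1 per exon length was 1.45 to 2.58 in C57, 0.99 to 1.53 in controls and 1.64, 1.28 and 0.32 in Yap CKO 1, 2 and 3.

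Of the 6 genes that shut off the response or regulate its proteins, all passed as lower in control and 4 passed in Yap CKO. Sag (ENSMUSG00000056055, chromosome 1, 87803680 to 87845158), rod arrestin, stood at 7159, 7613 and 6509 CPM in C57, at 1673, 324 and 824 CPM in controls and at 1568, 731 and 78.6 CPM in Yap CKO. Grk1, the kinase that phosphorylates the visual pigment, stood at 2034, 2558 and 3039 CPM in C57, 474, 110 and 239 CPM in controls and 545, 335 and 29.3 CPM in Yap CKO. Rcvrn, the calcium sensor that restrains this kinase, stood at 2235, 1584 and 1401 CPM, at 256, 38.5 and 120 CPM and at 275, 138 and 11.7 CPM. Rcvrn fell further than its partner, with log2 fold changes of -3.64 and -3.20 in control, a difference smaller than the SE of either (0.62 and 0.49). Rgs9, which speeds up GTP hydrolysis by transducin, and Rgs9bp, its membrane anchor, had the smallest standard errors of the 6 in both comparisons. Rgs9 stood at 715 to 820 CPM in C57, 74 to 206 CPM in controls and 46.5 to 185 CPM in Yap CKO (-2.52 ± 0.336 and -2.65 ± 0.465). Rgs9bp stood at 584 to 904, 49.7 to 134 and 29.7 to 142 CPM (-3.02 ± 0.361 and -3.01 ± 0.561). All 4 of these values passed. Pdc, phosducin, which binds the beta and gamma subunits of transducin, went from 3276 to 4022 CPM in C57 to 166 to 654 CPM in controls and 37.5 to 717 CPM in Yap CKO, and passed in both (-3.23 and -3.27).

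The 2 guanylate cyclases and the 2 proteins that activate them when calcium falls were lower in control in all 4 cases, and Gucy2e and Gucy2f also passed in Yap CKO. Gucy2e stood at 838, 875 and 890 CPM in C57, at 222, 66.2 and 120 CPM in controls and at 232, 144 and 38.4 CPM in Yap CKO (-2.66 ± 0.388 and -2.65 ± 0.618). Gucy2f (X chromosome, 142081160 to 142196931), the cyclase with the lower level, fell further, from 242 to 389 CPM in C57 to 46.9, 10.2 and 23.8 CPM in controls and 44.9, 26.9 and 2.54 CPM in Yap CKO (-3.49 ± 0.512 and -3.62 ± 0.971). The ratio of Gucy2e to Gucy2f per exon length was 3.06, 2.66 and 2.02 in C57 1, C57 2 and the unnumbered C57 library. It was 4.17 to 5.76 in controls and 4.57, 4.73 and 13.4 in Yap CKO, with no overlap between C57 and either P60 group. The GC content of Gucy2e was 52.6% and that of Gucy2f 42.0%, and its part in this ratio was not tested. Guca1a stood at 821 to 1057 CPM in C57, 44.1 to 198 CPM in controls and 11.4 to 211 CPM in Yap CKO, and Guca1b at 1524 to 2229, 102 to 481 and 24.7 to 532 CPM. Their ratio per exon length stayed between 0.993 and 1.51 in all 9 libraries.

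Among the genes that build the discs and the outer segment, all 5 passed as lower in control and 3 passed in Yap CKO. Prph2 (ENSMUSG00000023978, chromosome 17, 46910459 to 46924933), a tetraspanin that shapes the disc rim, stood at 9865, 8317 and 6771 CPM in C57, 1568, 318 and 801 CPM in controls and 1705, 870 and 108 CPM in Yap CKO. Rom1, its partner at the rim, stood at 4368, 3162 and 2597 CPM, at 754, 225 and 425 CPM and at 929, 508 and 159 CPM. The ratio of Prph2 to Rom1 per exon length was 1.14 to 1.33 in C57 and 0.713 to 1.05 in controls, without overlap, and 0.927, 0.866 and 0.344 in Yap CKO 1, 2 and 3. Rp1, a microtubule protein of the axoneme, fell least of the 5 in control, from 1527, 1959 and 2330 CPM in C57 to 682, 139 and 355 CPM in controls and 755, 444 and 19.5 CPM in Yap CKO (-2.29 ± 0.504, adjusted p = 0.00762, and -2.25 ± 1.13, adjusted p = 0.169). Its relative Rp1l1, which also lies along the axoneme, fell by 3.13 on the log2 scale in control, from 1033 to 1117 CPM to 46.5 to 211 CPM. Fscn2, an actin-bundling protein, had the lowest CPM of the 30 genes in C57, with 240, 140 and 106 CPM in C57, 30.3, 7.93 and 14.2 CPM in controls and 36.8, 17.1 and 3.01 CPM in Yap CKO (-3.19 and -3.08, both passing).

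The 4 genes of protein transport and scaffolding ranged from small falls (Tulp1, Unc119) to one of the larger ones (Reep6). Unc119, which carries lipid-modified proteins such as the transducin alpha subunit and is also made outside photoreceptors, stood at 2532, 2136 and 1554 CPM in C57, 565, 274 and 398 CPM in controls and 741, 483 and 219 CPM in Yap CKO. It passed in both comparisons, with -2.31 ± 0.292 and -2.10 ± 0.418. Tulp1, needed for the delivery of proteins to the outer segment, stood at 1447, 969 and 671 CPM in C57, 534, 99.3 and 283 CPM in controls and 630, 332 and 27.4 CPM in Yap CKO. Its highest Yap CKO library lay only just below its lowest C57 library. Its log2 fold change was -1.73 ± 0.551 in control (adjusted p = 0.0346) and -1.64 ± 1.01 in Yap CKO (adjusted p = 0.243). Reep6, a protein of vesicle traffic in rods, went from 874 to 1627 CPM in C57 to 40.8 to 208 CPM in controls and 27.7 to 213 CPM in Yap CKO (-3.44 and -3.38, both passing). Mpp4, a scaffold of the photoreceptor terminal, stood at 390 to 412 CPM in C57, 33.5 to 98 CPM in controls and 17.4 to 114 CPM in Yap CKO (-2.72 and -2.53, both passing). Mpp4 shares 510 exon bases with an antisense gene, so its count is less certain than the others.

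Impg1 and Impg2 encode proteoglycans of the matrix around the outer segments, and within the Yap CKO group they were the most spread of the 30 genes. Impg1 (chromosome 9, 80313330 to 80465481) stood at 678, 809 and 902 CPM in C57, at 205, 32.3 and 99.5 CPM in controls and at 216, 116 and 2.24 CPM in Yap CKO. Impg2 (ENSMUSG00000035270, chromosome 16, 56204313 to 56273756) stood at 670, 811 and 973 CPM in C57, at 488, 69.8 and 238 CPM in controls and at 505, 258 and 7.04 CPM in Yap CKO. In the highest P60 libraries Impg2 was thus near its C57 level, only 1.67-fold below the C57 mean in control 1 and 1.62-fold in Yap CKO 1, while in Yap CKO 3 it was 116-fold below. Impg1 passed in control (-2.81 ± 0.57, adjusted p = 0.0053), and neither passed in Yap CKO (adjusted p = 0.168 and 0.347). The ratio of Impg1 to Impg2 per exon length was 2.37 to 2.59 in C57, 1.07 to 1.18 in controls and 0.813 to 1.15 in Yap CKO, without overlap between C57 and either P60 group.

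The libraries of the P60 groups were far less alike for these genes than for the transcriptome. The median standard deviation of log2 CPM within a group was 0.23 for the 30 genes in C57, 1.10 in controls and 2.24 in Yap CKO, while over all 16858 genes tested it was 0.27, 0.10 and 0.17. For the 24 other photoreceptor genes it was 0.22, 0.90 and 1.66, and for the 11 cone genes 0.25, 0.70 and 1.24. In the control group all 30 genes had the order control 1, control 3, control 2 from high to low, an order that 24.8% of all tested genes had. In the Yap CKO group all 30 had the order Yap CKO 1, 2, 3, against 24.9% of tested genes. The 24 other photoreceptor genes also had both orders without exception, and 9 of 11 cone genes did, against 11.2% of all tested genes. The highest control library exceeded the lowest by 2.06-fold (Unc119) to 7-fold (Impg2) with a median of 4.58-fold. The highest Yap CKO library exceeded the lowest by 2.34-fold (Gnb1) to 96.7-fold (Impg1) with a median of 18.9-fold.

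Genes with a wider range in one P60 group tended to have a wider range in the other, although the groups share no library. Across the 30 genes the log2 ratio of control 1 to control 2 and that of Yap CKO 1 to Yap CKO 3 had a Pearson correlation of 0.90 and a Spearman correlation of 0.86, given as a description because the genes are not replicates. The values were as high over the 24 other photoreceptor genes (0.91 and 0.89) and the 11 cone genes (0.95 and 0.97), so this is not particular to the 30 genes. Over all tested genes they were 0.41 and 0.29. Without Gnb1 and Unc119, the narrowest of the 30, they were 0.87 and 0.83 over 28 genes. Next after these came Rgs9 (2.79-fold and 3.98-fold), Rgs9bp (2.69-fold and 4.77-fold), Cngb1 (3.34-fold and 4.81-fold), Gucy2e (3.34-fold and 6.04-fold), Rom1 (3.35-fold and 5.85-fold) and Mpp4 (2.93-fold and 6.56-fold). The 4 widest in controls were Impg2 (7-fold, and 71.7-fold in Yap CKO), Rcvrn (6.63-fold and 23.4-fold), Impg1 (6.34-fold and 96.7-fold) and Gnat1 (6.04-fold and 32.1-fold). The 4 widest in Yap CKO were Impg1, Impg2, Rp1 (38.6-fold, and 4.89-fold in controls) and Gnat1. Reep6 had a wide range in controls (5.10-fold) and a narrow one in Yap CKO (7.69-fold). The lens markers that set Yap CKO 3 apart were highest in the 1 library where all 30 genes were lowest, and their part was not tested. Control 2, the lowest control library for the 30 genes, had a lens marker sum of 8.28 CPM, below controls 1 and 3 (13.9 and 10.8 CPM).

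**Figure D4:**
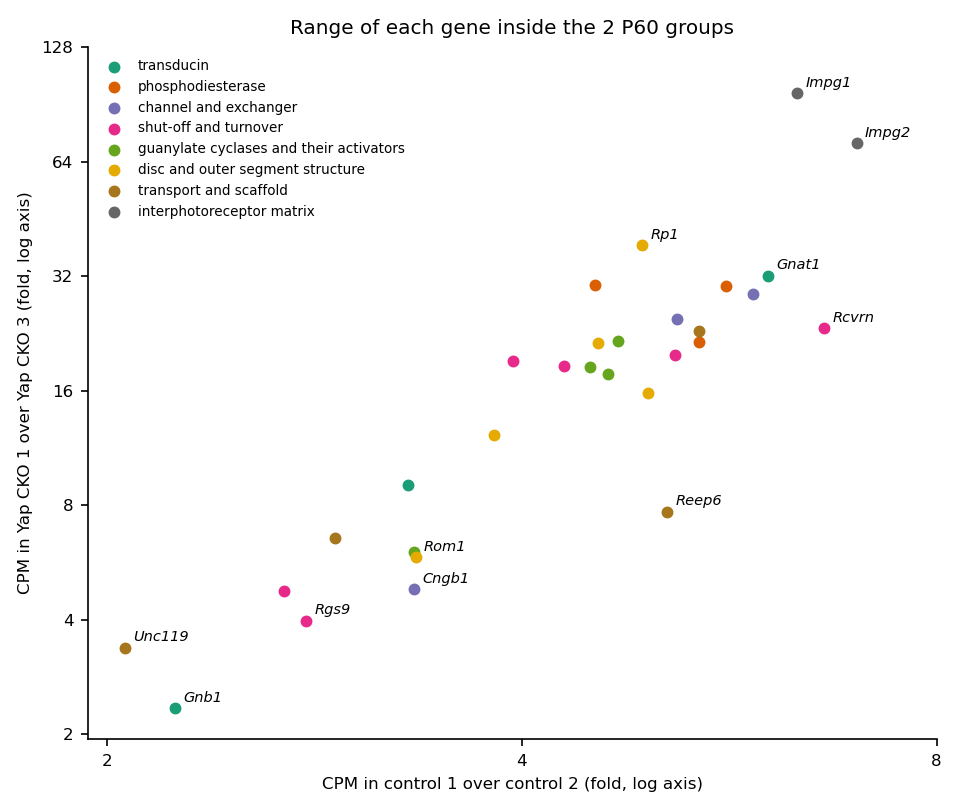
Fold from the lowest to the highest library of the control group (horizontal, control 1 over control 2) against the same in the Yap CKO group (vertical, Yap CKO 1 over Yap CKO 3), both on log axes, 1 point per gene and colour for its role. Gnb1 and Unc119 lie at the lower left, and Impg1 and Impg2 at the upper right.

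The comparison of Yap CKO with control, at the same age and after the same 4-OHT, is the one that addresses the deletion of Yap in Müller cells. The groups also differed in carrying Cre and in sex, with Y-linked transcripts in 3 of 3 control and 1 of 3 Yap CKO libraries. The part of either was not tested. None of the 30 genes passed in either direction, and none reached an unadjusted p under 0.05 with edgeR, DESeq2 or limma-voom. Over all 16539 tested genes, 0.200% were called in either direction. Log2 fold changes ran from -0.25 (Sag) to 0.22 (Unc119) with a median of 0.02, and 14 of 30 were negative. No gene had libraries without overlap, while 25.3% of all tested genes did. The spread leaves wide intervals. The narrowest 95% intervals were those of Gnb1 (-1.15 to 1.05) and Unc119 (-1.14 to 1.58), and the widest was that of Impg1 (-4.14 to 4.12), so for most of the 30 genes a severalfold difference in either direction was not detectable. The direction depends on the fit and on single libraries. With all 6 libraries, limma-voom gave 28 of 30 negative values (-1.19 to 0.11, median -0.47), and the fit with replicate number as a block also gave 28 (-0.64 to 0.12, median -0.31). Without control 1 all 30 values were positive (0.29 to 0.87) and without Yap CKO 3 as well (0.20 to 0.70), while without control 2 (-0.66 to -0.01) or Yap CKO 1 (-1.21 to -0.23) all 30 were negative. In the authors' deposited table of 305 genes for this comparison (74 higher and 231 lower in Yap CKO), none of the 30 genes, none of the 24 other photoreceptor genes and none of the 11 cone genes was listed. Genes in that table had a p of 0.04889 or less in the authors' own test and an absolute log2 fold change of 0.587 or more. It rests on the same libraries, so the absence is not a separate result.

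Set side by side, the highest library of each group was nearly the same. Yap CKO 1 and control 1 differed by 0.899-fold (Rgs9) to 1.31-fold (Unc119) over the 30 genes, with a median of 1.07-fold. The middle libraries, Yap CKO 2 and control 3, differed by 0.888-fold (Sag) to 1.55-fold (Mpp4), with a median of 1.17-fold. The lowest libraries differed most, with control 2 above Yap CKO 3 by 1.07-fold (Gnb1) to 14.4-fold (Impg1) and a median of 3.70-fold. These ratios are between single libraries and carry no test.

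To ask whether the 30 genes kept step with other photoreceptor transcripts, libraries were aligned on the 24 genes of the other photoreceptor list, by the median log2 ratio of those genes to their mean. This alignment took out a shift of 1.99 to 2.28 in C57, -1.98 to -0.05 in controls and -3.11 to 0.10 in Yap CKO (log2). The median standard deviation of the 30 genes within a group became 0.22 in C57, 0.22 in controls and 0.63 in Yap CKO. In the edgeR fit with this scaling none of the 30 genes passed in any comparison, with or without adjustment of p, while 95.8%, 94.1% and 0.0484% of all tested genes were called in either direction in control against C57, Yap CKO against C57 and Yap CKO against control. The shares against C57 follow from the alignment, which raises most genes outside photoreceptors. Of the 24 genes used for it, 4 were called, all as higher, in control against C57, and 0 in Yap CKO against C57 or against control. Standard errors in this fit were near 0.642, 1.15 and 1.28 (medians over the 30 genes), because the fit draws its spread from all genes and the alignment widens the spread of genes outside photoreceptors.

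Relative to the other photoreceptor genes, 9 of the 30 genes lay lower in every control library than in every C57 library (0.417% of all tested genes did). Another 5 lay higher (97.0% did). Such shares against C57, low and high, follow from the alignment because most genes are not photoreceptor genes, so they are no background for these counts. The same count was not taken for the 24 genes. In the aligned fit of control against C57 the 24 genes ran from -1.18 to 1.67, and the 30 genes from -0.96 to 1.04. The 9 were Pde6g, Gnat1, Cnga1, Rcvrn, Pdc, Slc24a1, Reep6, Prph2 and Gucy2f, with mean differences of -0.89 (Pde6g and Rcvrn) to -0.33 (Pdc). The 5 were Tulp1 (1.14), Impg2 (1.12), Unc119 (0.76), Rgs9 (0.47) and Gucy2e (0.28). For Gnat1 the aligned log2 levels were 12.53, 12.57 and 12.61 in C57, 12.14, 11.47 and 11.90 in controls and 12.08, 11.87 and 10.29 in Yap CKO. For Slc24a1 they were 9.04, 9.28 and 9.61, then 8.79, 8.16 and 8.62, then 8.58, 8.50 and 6.95. Both were below C57 in all 6 P60 libraries and lowest in Yap CKO 3. In Yap CKO against C57, 10 genes lay lower without overlap (0.347% of all tested genes) and 3 higher (96.5%). The 10 ran from Slc24a1 (-1.30) to Prph2 (-0.55), and the 3 were Unc119 (1.12), Gngt1 (0.49) and Mpp4 (0.45). No gene was without overlap in Yap CKO against control (0.285% of all tested genes were). With 3 libraries against 3, no exact test of a single gene can go below a p of 0.10.

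After alignment, Tulp1 and Impg2 lay above all C57 libraries in every P60 library but Yap CKO 3, and Unc119 did so in every P60 library. In the aligned fit of control against C57, Tulp1 and Impg2 were both at 1.04 (log2). The 24 other photoreceptor genes ran there from -1.18 to 1.67, so the 2 genes lay within the range of that list. The aligned log2 level of Tulp1 was 8.22, 7.75 and 7.40 in C57, 9.11, 8.61 and 9.06 in controls, and 9.19, 9.03 and 7.88 in Yap CKO. That of Impg2 was 7.11, 7.49 and 7.94 in C57, 8.98, 8.10 and 8.81 in controls, and 8.88, 8.66 and 5.92 in Yap CKO. Without Yap CKO 3 both passed as higher in Yap CKO against C57 in the aligned edgeR fit (1.22, adjusted p = 0.00092, and 1.17, adjusted p = 0.00167), and without control 2 both passed in control against C57 (1.20, adjusted p = 0.00483, and 1.29, adjusted p = 0.00255). With all libraries in the fit neither passed, and Tulp1 is also among the genes that varied most between the C57 libraries. Yap CKO 3 went against its group in the other direction for Gnb1, whose aligned level was 12.45 there against 10.46 and 10.60 in Yap CKO 1 and 2, and for Unc119 (10.88 against 9.43 and 9.57).

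**Figure D5:**
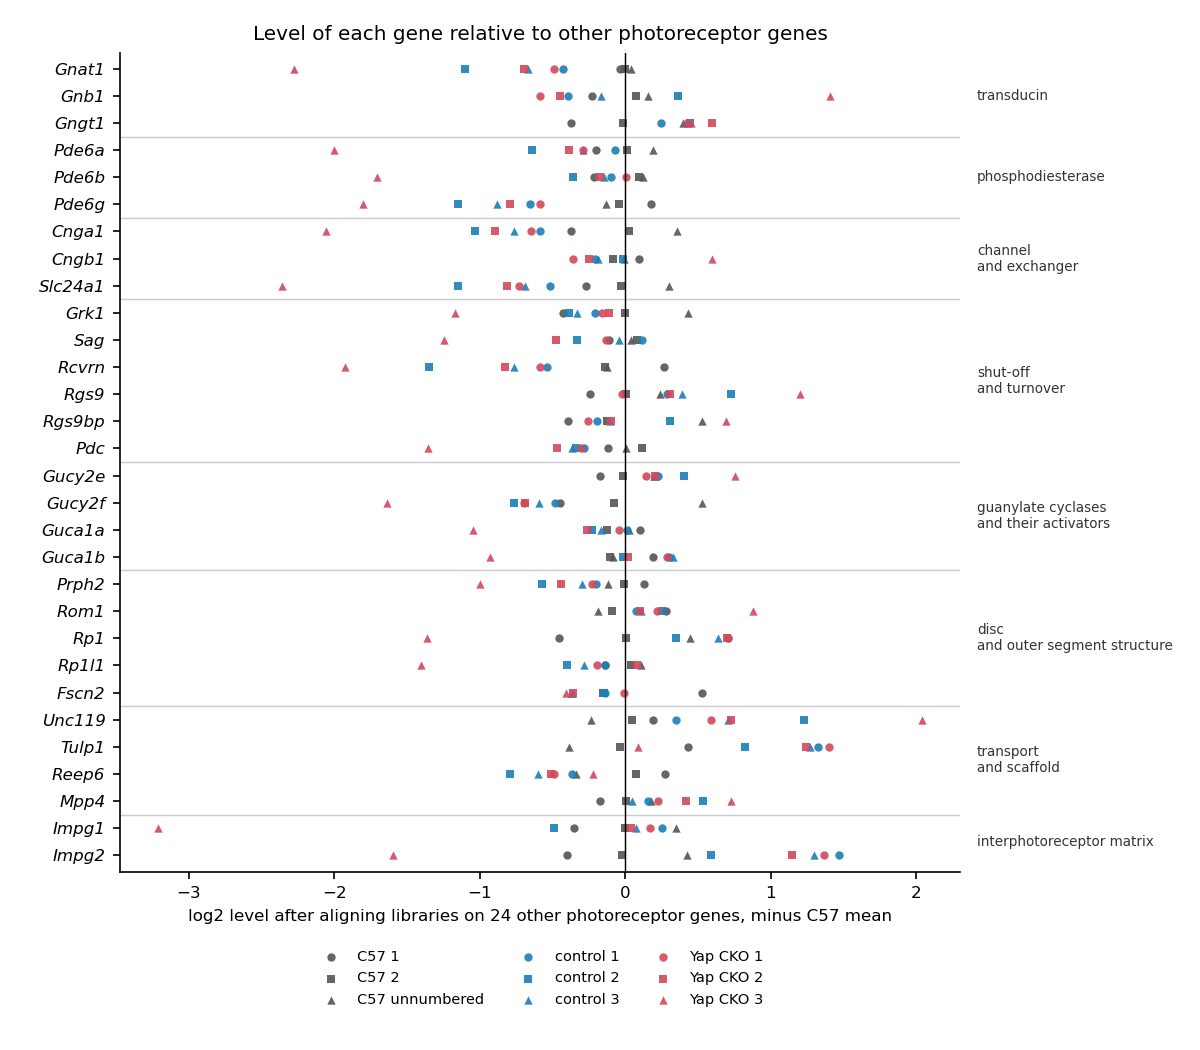
Level of each gene (rows, grouped by role) after the libraries were aligned on 24 other photoreceptor genes, as the log2 difference from the mean of the C57 libraries, 1 point per library. Most points of C57, the controls and Yap CKO 1 and 2 lie within 1 log2 unit of 0. Among these libraries Tulp1, Impg2 and Unc119 reach above 1, and some control 2 points, such as Rcvrn and Pde6g, lie more than 1 below 0. Yap CKO 3 (red triangle) lies farthest out in most rows, from Impg1 on the left to Unc119 on the right, with Gnb1 and Rgs9 also above 1.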

How the data were processed

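Whole mouse retinas were sequenced as directional TruSeq libraries from 1 µg of total RNA, per the labels' protocols. Per the submitters' processing notes, GRCm38, featureCounts, edgeR and HISAT2 2.1.0 were used, while the sources used here give neither the annotation release nor the strand setting of counting. The authors deposited raw read counts per Ensembl gene, and a table of 305 genes with a log2 fold change and a p-value. Its 9 columns of values per library were not used. Positions, exon lengths and GC content come from GENCODE M21, promoters from RefSeq.

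Each comparison was fitted on its 6 libraries with edgeR 4.0.16 (R 4.3.3, quasi-likelihood, robust, TMM, filterByExpr with a minimum count of 10 and total of 15) and Benjamini-Hochberg adjustment over all tested genes at 0.05, and was tested on simulated data. Printed CPM use 1 TMM scaling over the 9 libraries. A second fit scaled libraries by the median ratio of 24 other photoreceptor genes. All 30 genes are named, and of other lists only those a result turns on. P-values measure the spread between single retinas, each taken as 1 animal, which the labels do not state. Libraries of a group differed by 24.2 to 144 times sampling noise (chi-square per degree of freedom), so none was a duplicate. Alternatives were other scalings and filters, DESeq2 1.42.0, limma-voom (limma 3.58.1), 1 fit of all libraries, bias-adjusted deviances, thinning to 13760765 counts, a replicate block, each library left out and, chosen after seeing the data, GC-adjusted offsets. The genes and lists were chosen with earlier results of these data known.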

Additional observations from a re-analysis of the deposited data

How the results depend on the processing

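The direction of all 30 genes against C57 held under every alternative run for both P60 groups. In control against C57 the count of 29 stayed between 22 and 30, except for 17 with the replicate block. That block, which for the C57 comparisons could use only libraries 1 and 2 of each group, raised the count in Yap CKO against C57 from 17 to 30, a fit without Yap CKO 3. The latter count was 4 with no filter on low counts, 26 with a filter of 1 CPM in 3 libraries, 26 with DESeq2, 28 with limma-voom, 9 with GC-adjusted offsets (chosen after seeing the data), and 4 to 29 when each library was left out. In Yap CKO against control no alternative called any of the 30 genes. The replicate block left 0 of 30 genes called there, and called 42 genes lower and 3 higher over all genes, against 30 and 3 without it. Deviations of same-numbered libraries had correlations of 0.528, -0.077 and 0.01, so the numbers were not taken to pair retinas. DESeq2 called 559 genes lower and 360 higher there, and the fit without Yap CKO 3 called 817 and 656. With libraries aligned on other photoreceptor genes, 1 member passed as lower in control against C57 with scaling by the summed CPM of the list (Pde6g) and 1 with GC-adjusted offsets (Reep6), and with each library left out 0 to 2 passed as lower and 0 to 2 as higher. In Yap CKO against C57 so aligned, 2 passed as higher with the replicate block (Tulp1 and Impg2), and with each library left out 0 to 5 passed as lower and 0 to 2 as higher. The cause of these changes was not tested. Fits that leave out a library have 2 libraries in 1 group and rest on the spread of the others. Depth limits no member in C57 or controls. In Yap CKO 3 the lowest level was 2.24 CPM (Impg1).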
